A study of Mus musculus with 15 samples.

Results

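Immediate early genes are transcribed within minutes of a signal to the cell, before any new protein has to be made. Of the 38315 genes in the table of normalized counts, 10 were studied here, found by their gene names: *Fos*, *Fosb*, *Jun*, *Junb*, *Jund*, *Egr1*, *Egr2*, *Egr3*, *Ier2* and *Nr4a1*. All 10 were above 0 in all 15 libraries and passed the filter on low values. RNA came from bone marrow of mice of genotype NUP98NSD1/FLT3ITD with acute myeloid leukaemia (AML, n = 7), from wild-type whole marrow (n = 4) and from wild-type lineage-negative marrow (n = 4), which is depleted of maturing blood cells. NUP98-NSD1 joins parts of a nuclear pore protein and a histone methyltransferase, FLT3-ITD keeps a cytokine receptor kinase active, and both were carried by all 7 AML mice and by none of the controls, according to the labels. Strain, age, the promoters of the transgenes and the way lineage-negative cells were isolated are not given in the labels used here, and neither is whether each normal sample was 1 mouse or a pool, so the p-values measure only the spread between these samples.

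FOS and JUN proteins pair through leucine zippers to form the transcription factor AP-1. When the MAPK cascade is active, the FOS genes (*Fos*, *Fosb*) are switched on through serum response factor, ETS-family partners and CREB. *Jun* is switched on through AP-1 proteins, whereas *Jund* is transcribed in many resting cells. EGR proteins are zinc finger factors that bind GC-rich sites, NR4A1 is an orphan nuclear receptor, and IER2 is a nuclear protein made early after stimulation. In blood these factors act in monocyte differentiation, in antigen receptor signalling and in the quiescence of stem cells. Handling of cells, such as dissociation and sorting, is also known to switch them on.

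The promoters of *Fos*, *Fosb*, *Jun*, *Junb* and *Nr4a1* are shown because each gene was called in at least 1 comparison and its window held a match to a motif searched. No window of *Egr1*, *Egr3* or *Ier2* was used. RefSeq (GRCm38.p6) windows of 300 bases, 250 before and 50 after a gene's start, were matched by symbol for 7 members: *Fos*, *Fosb*, *Jun*, *Junb*, *Jund*, *Egr2* (5 windows) and *Nr4a1*. For 5 genes the 250 bases before the start are printed 5′ to 3′ on the gene's strand, and capitals mark matches to motifs that were searched on both strands.
Fos, chr12:85473640-85473889, plus strand: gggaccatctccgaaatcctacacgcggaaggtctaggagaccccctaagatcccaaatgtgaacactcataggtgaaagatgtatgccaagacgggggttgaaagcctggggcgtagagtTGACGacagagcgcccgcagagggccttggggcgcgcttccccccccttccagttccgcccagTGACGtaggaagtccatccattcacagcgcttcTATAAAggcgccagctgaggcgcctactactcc
Fosb, chr7:19310046-19310295, minus strand: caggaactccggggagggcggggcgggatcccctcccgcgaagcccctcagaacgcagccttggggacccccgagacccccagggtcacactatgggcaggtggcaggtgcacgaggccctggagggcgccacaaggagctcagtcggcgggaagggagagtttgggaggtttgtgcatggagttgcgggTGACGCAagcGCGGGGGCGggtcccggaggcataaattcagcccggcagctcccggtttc
Jun, chr4:95052223-95052472, minus strand: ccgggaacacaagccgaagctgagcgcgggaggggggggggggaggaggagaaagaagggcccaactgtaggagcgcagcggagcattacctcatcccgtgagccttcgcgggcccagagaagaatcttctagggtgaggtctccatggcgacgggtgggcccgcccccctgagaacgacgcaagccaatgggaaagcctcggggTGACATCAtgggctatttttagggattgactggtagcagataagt
Junb, chr8:84978749-84978998, minus strand: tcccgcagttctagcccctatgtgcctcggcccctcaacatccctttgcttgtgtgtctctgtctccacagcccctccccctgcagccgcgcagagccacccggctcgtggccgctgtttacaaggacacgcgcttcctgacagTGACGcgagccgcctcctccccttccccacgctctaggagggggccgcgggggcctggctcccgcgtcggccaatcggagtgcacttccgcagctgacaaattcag
Nr4a1, chr15:101266596-101266845, plus strand: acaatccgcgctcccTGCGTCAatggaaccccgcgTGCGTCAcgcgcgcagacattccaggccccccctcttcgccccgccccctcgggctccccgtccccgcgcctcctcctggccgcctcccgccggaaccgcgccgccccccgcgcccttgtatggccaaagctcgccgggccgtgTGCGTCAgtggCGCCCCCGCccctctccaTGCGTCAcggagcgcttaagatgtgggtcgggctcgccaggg
The motifs searched were the AP-1 site TGACTCA, the AP-1-like letters TGACATCA and TGCGTCA, the cyclic AMP response element TGACGTCA, its half-site TGACG, the EGR sites GCGGGGGCG and GCGTGGGCG, TATAAA, and the CArG box bound by serum response factor. TGACG is contained in TGACGTCA and overlaps TGCGTCA read on the other strand. TGACATCA lay at −45 in *Jun* and is held by 3.62% of all 32851 windows. *Fos* held TGACG at −129 and −66, *Fosb* at −60, *Junb* at −106 and *Nr4a1* within each of its TGCGTCA matches, letters that 20.8% of all windows hold. *Fosb* held TGCGTCA once, on the other strand, at −60, and *Nr4a1* 4 times, at −235, −215, −71 and −42; 2.12% of all windows hold it at least once. *Fosb* (−50) and *Nr4a1* (−60) each held GCGGGGGCG, as 2.91% of all windows do. A CArG box stood in 4 of the 5 *Egr2* windows and in 1.63% of all windows. Those 4 are not separate sites. The *Egr2* windows starting at 67537619, 67537620 and 67537680 overlap and hold the same CCATATATGG, and the one starting at 67537316 holds CCTTTTTTGG. TATAAA (13.6% of all windows) was found in *Fos* at −33 and in *Junb* at +1, just past the printed bases. Positions count from the first base of the match, with +1 at the RefSeq start. TGACTCA (5.2% of all windows), TGACGTCA (1.79%) and GCGTGGGCG (0.612%) were in none of the 11 windows of these members.

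The values are counts divided by one size factor per library, called normalized counts. Estimated depth was 20.3 to 35.1 M reads in AML, 11.4 to 17.2 M in whole marrow and 20.3 to 28.1 M in lineage-negative marrow (M, mega). Because the median log2 difference over the 18941 genes tested was 0.67 between AML and whole marrow and 0.59 between both normal groups, but 0.02 between AML and lineage-negative marrow, calls against whole marrow are also given with TMM scaling (trimmed mean of M values), where these medians were −0.01, −0.09 and 0.03. Whole marrow had 7.1% to 15.7% of genes at 0, against 35.7% to 41.0% in lineage-negative libraries. The AML libraries had 38.2% to 41.4%, except replicates 5 (29.1%) and 6 (23.6%). The mean of 1611 olfactory and vomeronasal receptor genes, which marrow is not known to use, was 6.69 to 12.6 normalized counts in whole marrow and 0.351 to 0.475 in lineage-negative libraries. AML replicate 5 had 1.23, AML replicate 6 had 3.55 and the remaining AML libraries had 0.437 to 0.692. Calls required an adjusted p below 0.05 together with a log2 difference of 1 or more in size. Errors are standard deviations over samples unless given as a standard error (SE).

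Lineage-negative marrow had more *Jun*, *Fosb* and *Egr1* RNA than whole marrow and than AML, while *Junb*, *Ier2* and *Nr4a1* were not called between AML and lineage-negative marrow. Against lineage-negative marrow, 5 of 10 members were called lower in AML (*Fos*, *Fosb*, *Jun*, *Egr1* and *Egr3*) and 0 higher, where 12.5% of all genes were called lower and 17.7% higher. With TMM scaling the same 5 of 10 were lower, against 12.4% of genes. For *Fosb*, *Jun* and *Egr1* every AML library lay below every lineage-negative library, which held for 17.6% of all genes. Between the normal groups, 5 of 10 members (*Fos*, *Fosb*, *Jun*, *Jund* and *Egr1*) were called higher in lineage-negative than in whole marrow and 0 lower, where 33.1% of all genes were higher and 17.2% lower. With TMM scaling 3 of 10 (*Fosb*, *Jun* and *Egr1*) were called higher, against 11% of genes. All lineage-negative libraries lay above all whole marrow libraries for 6 of 10 members, against 41.1% of genes. Against whole marrow, 4 of 10 members (*Jun*, *Junb*, *Ier2* and *Nr4a1*) were called higher in AML and 0 lower, where 27.3% of all genes were called higher and 11.3% lower. All AML libraries lay above all whole marrow libraries for 3 of 10 members (*Junb*, *Ier2* and *Nr4a1*), against 35.8% of genes. With TMM scaling 0 of 10 were called higher, against 4.73% of genes.

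**Figure D1:**
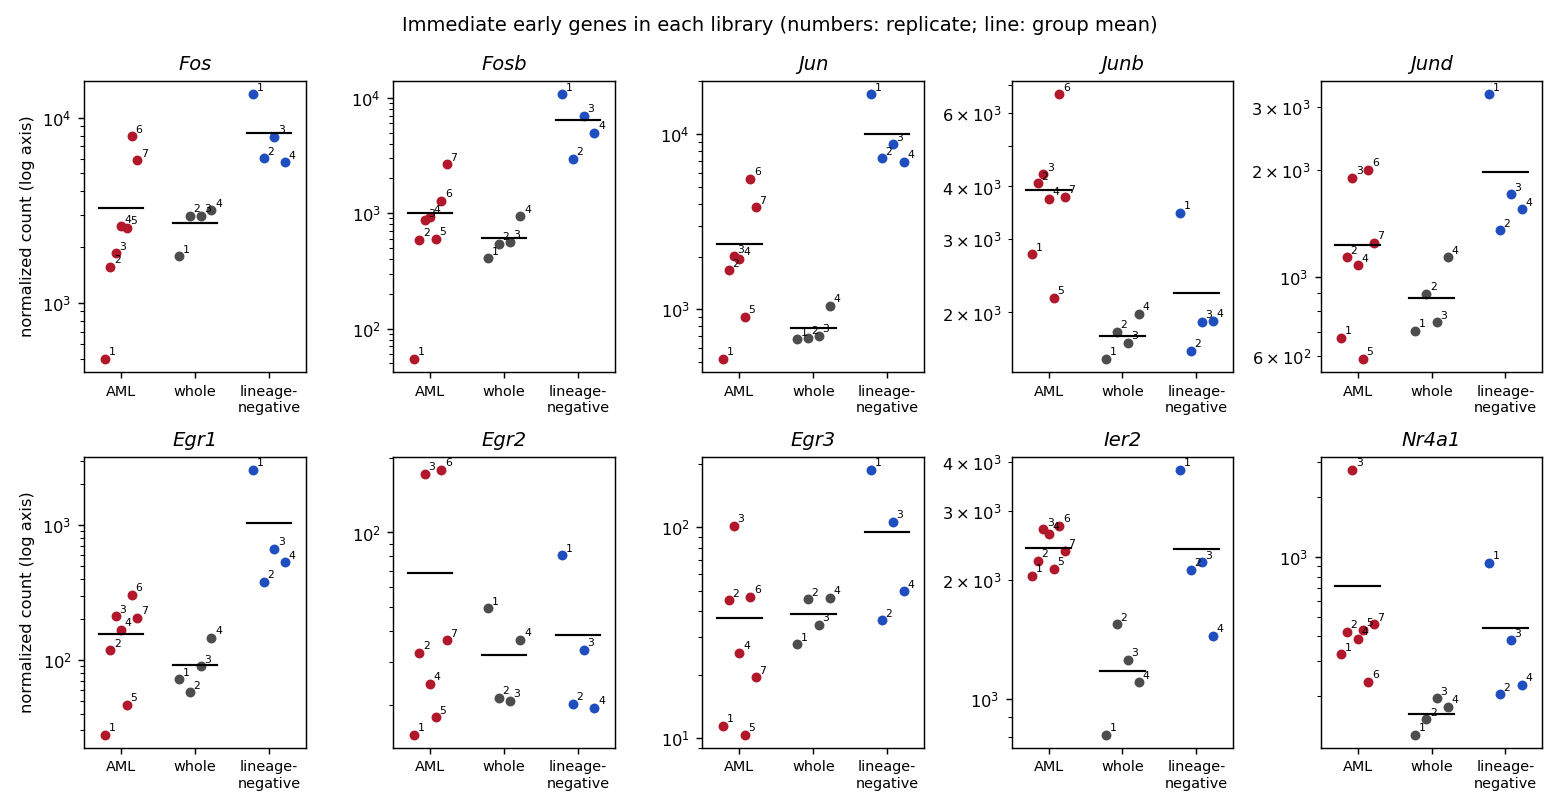
Normalized counts (log axis, different range in each panel) of the 10 genes in each library; points are libraries with their replicate number and lines are group means. Lineage-negative libraries sit above all others for *Jun*, *Fosb* and *Egr1*, and replicate 1 is the highest lineage-negative library in all 10 panels.

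*Jun* (ENSMUSG00000052684, chromosome 4, 94937271 to 94940459) encodes the JUN partner that drives much of inducible AP-1 activity. It had 16901, 7269.8, 8746 and 6959 normalized counts in lineage-negative replicates 1 to 4, and 675, 686, 705 and 1046 in whole marrow replicates 1 to 4. In AML the lowest value of *Jun* was 522 (replicate 1), the median 1943 and the highest 5573 (replicate 6). Every lineage-negative library was thus higher than every other library, and AML overlapped whole marrow. The log2 difference of *Jun* in lineage-negative against whole marrow was 3.60 (SE 0.51, adjusted p = 6.70e-06), or 2.90 with TMM, and ranked 20 from the highest among 18941 genes. The lineage-negative mean was 9969 ± 4687 (SD, n = 4) and the whole marrow mean 778 ± 179 (SD, n = 4). AML, with 2348 ± 1766 (SD, n = 7), was lower than lineage-negative marrow by −2.35 in *Jun* (SE 0.45, adjusted p = 0.000252). Against whole marrow the *Jun* difference was 1.25 (SE 0.45, adjusted p = 0.0212). The latter was not called with TMM (0.55, adjusted p = 0.403), without AML replicate 6 (0.98, adjusted p = 0.0402) or without whole marrow replicate 1 (1.19, adjusted p = 0.0717). Nor was it called with quantile normalization, robust empirical Bayes, the replicate block or without AML replicates 5 to 7.

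*Fosb* (ENSMUSG00000003545, chromosome 7, 19036621 to 19043976) encodes a FOS partner of JUN proteins. It had 10739.8, 2954, 7016 and 4993 normalized counts in lineage-negative replicates 1 to 4, and 407, 541, 565 and 941 in whole marrow. In AML *Fosb* ran from 54.7 (replicate 1) through a median of 871 to 2659 (replicate 7), a range of 48.6-fold and the widest of the 10 genes. All lineage-negative values exceeded all others, the nearest being AML replicate 7. *Fosb* was higher in lineage-negative than in whole marrow, with a log2 difference of 3.30 (SE 0.74, adjusted p = 0.000688), or 2.60 with TMM. It was lower in AML than in lineage-negative marrow by −3.13 (SE 0.66, adjusted p = 0.000607). Against whole marrow the difference was 0.17 (SE 0.66, adjusted p = 0.829), and −0.52 with TMM.

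*Fos* (ENSMUSG00000021250, chromosome 12, 85520664 to 85524047), the founding member of its family, was less sharply divided. It had 13372, 6044, 7886 and 5737 normalized counts in lineage-negative replicates 1 to 4 and 1789, 2944, 2951 and 3163 in whole marrow. In AML the lowest value was 500.0 (replicate 1), the median 2536 and the highest 7941 (replicate 6), so that replicates 6 and 7 reached into the lineage-negative range. *Fos* was lower in AML than in lineage-negative marrow, with a log2 difference of −1.70 (SE 0.50, adjusted p = 0.00876), and did not pass the test against whole marrow (−0.15, SE 0.50, adjusted p = 0.810, and −0.84 with TMM). In lineage-negative against whole marrow *Fos* differed by 1.55 (SE 0.56, adjusted p = 0.0215). That call was not made with TMM (0.85, adjusted p = 0.237), without lineage-negative replicate 1 (1.29, adjusted p = 0.0693) or without whole marrow replicate 1 (1.37, adjusted p = 0.0807). Quantile normalization and robust empirical Bayes did not give that call either.

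*Junb* (ENSMUSG00000052837, chromosome 8, 85701113 to 85705347), whose product can restrain JUN-driven transcription and limits the expansion of myeloid cells in mice, behaved differently from *Jun*. It had 2166 (replicate 5) to 6643 (replicate 6) normalized counts in AML, with a median of 3783. Whole marrow replicates 1 to 4 had 1550.1, 1799.6, 1695 and 1985, and lineage-negative replicates 1 to 4 had 3463, 1621, 1899 and 1912. All AML libraries lay above whole marrow, and lineage-negative and whole marrow overlapped. Against whole marrow the log2 difference of *Junb* was 1.08 (SE 0.25, adjusted p = 0.00102). It was not called with TMM (0.39, adjusted p = 0.276) or without AML replicate 6 (0.95). The difference from lineage-negative libraries was 0.81 (SE 0.25, adjusted p = 0.0126), under the fold needed for a call, and 1.04 (adjusted p = 0.00237), a call, without lineage-negative replicate 1. The difference between the normal groups was 0.28 (SE 0.28, adjusted p = 0.398), and −0.42 with TMM.

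*Jund* (ENSMUSG00000071076, chromosome 8, 71151599 to 71153265), the JUN gene active in resting cells, overlapped between AML and both normal groups. Its normalized counts were 589 to 1997 in AML (median 1134), 705 to 1135 in whole marrow and 1351 to 3254 in lineage-negative marrow. *Jund* was called higher in lineage-negative than in whole marrow (log2 difference 1.11, SE 0.35, adjusted p = 0.00888), with no overlap. The call was not made with TMM (0.41, adjusted p = 0.371) or without lineage-negative replicate 1 (0.84). AML differed by 0.40 (SE 0.31) from whole marrow and by −0.71 (SE 0.31, adjusted p = 0.0658) from lineage-negative marrow.

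Because a size factor multiplies all genes of a library alike, the make-up of the AP-1 genes within a library does not depend on it. Per kb of exon, *Jun* made up 58.9% ± 2.40 of the summed *Jun*, *Junb* and *Jund* level over the 4 lineage-negative libraries. The share was 15.9% ± 1.45 over 4 whole marrow and 20.96% ± 8.21 over 7 AML libraries. The shares were 55.4% to 60.5% in the 4 lineage-negative libraries, 14.0% to 17.5% in whole marrow and 9.27% to 33.3% in AML. No AML or whole marrow library reached the lineage-negative range, and AML and whole marrow overlapped. *Junb* was the largest of the 3 in each AML library (45.8% to 67.8%) and in each whole marrow library (46.1% to 52.4%), and held 17.2% to 21.1% in lineage-negative marrow. *Jund* held 31.8% to 36.4% in whole marrow, 21.3% to 23.6% in lineage-negative marrow and 20.5% to 31.4% in AML. The ratio of *Jun* to *Junb* per kb was 3.18 ± 0.386 for lineage-negative, 0.317 ± 0.0449 for whole marrow and 0.397 ± 0.202 for AML libraries.

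**Figure D2:**
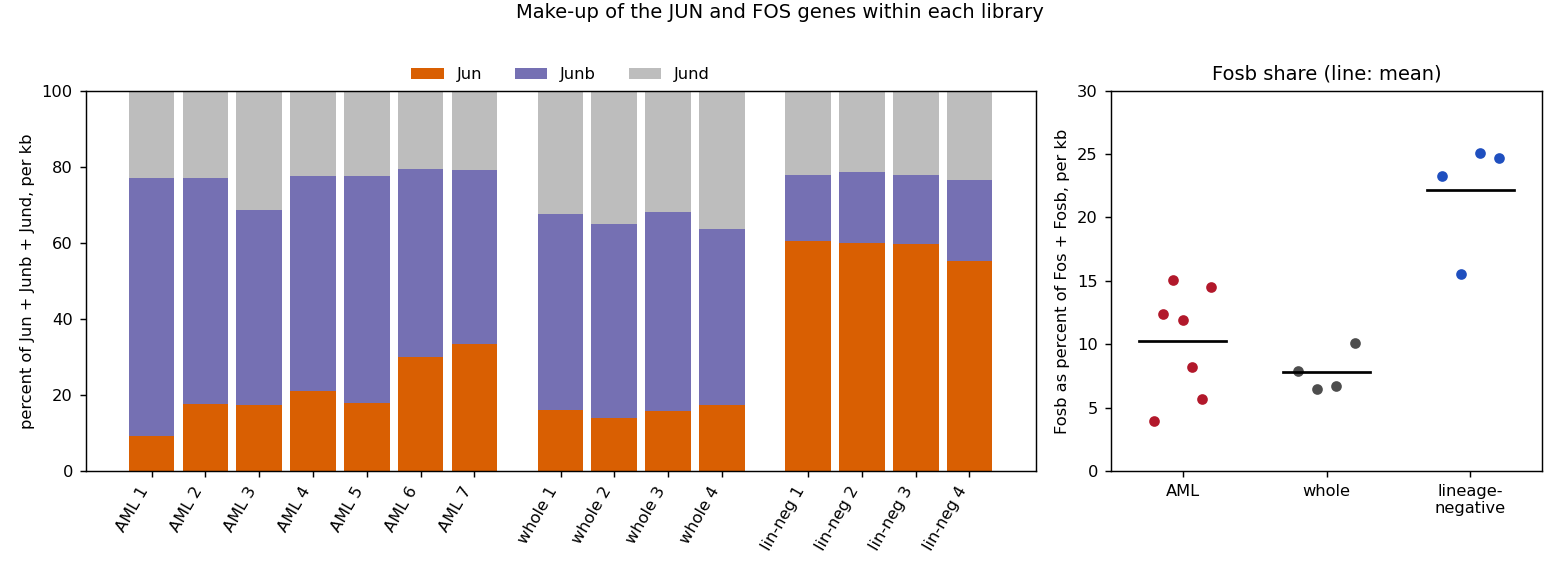
Left, share of *Jun*, *Junb* and *Jund* in their summed level per kb of exon in each library (stacked to 100%); right, *Fosb* as a percent of *Fos* plus *Fosb* per kb, with points for libraries and lines for means. *Jun* is the largest share in the 4 lineage-negative libraries (55.4% to 60.5%), and *Junb* in all 11 other libraries.

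Among the FOS genes, *Fosb* made up 22.1% ± 4.47 of the summed *Fos* and *Fosb* level per kb over the 4 lineage-negative libraries. This was 7.79% ± 1.65 over 4 whole marrow and 10.3% ± 4.34 over 7 AML libraries. The lineage-negative libraries, at 15.6% to 25.1%, lay above all AML libraries, at 3.96% to 15.1%, and all whole marrow libraries, at 6.48% to 10.1%. *Egr1* likewise made up 81.4% to 89.6% of the 3 EGR genes per kb in lineage-negative marrow, 43.4% to 60.4% in whole marrow and 38.9% to 75.0% in AML. These shares were not tested.

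*Egr1* (ENSMUSG00000038418, chromosome 18), the EGR gene known for its link to stem cell quiescence and monocyte differentiation, was also highest in lineage-negative marrow. It had 2557, 379, 666 and 528 normalized counts in lineage-negative replicates 1 to 4, and 71.8, 57.6, 89.7 and 146 in whole marrow. In AML *Egr1* ran from 28 (replicate 1) through a median of 167 to 305 (replicate 6). The lineage-negative libraries lay above all others, while AML and whole marrow overlapped. *Egr1* was higher in lineage-negative than in whole marrow, with a log2 difference of 3.14 (SE 0.64, adjusted p = 0.000276), or 2.44 with TMM, and lower in AML by −2.67 (SE 0.565, adjusted p = 0.000663). Without lineage-negative replicate 1, whose value was far above the others, these differences were 2.56 (adjusted p = 0.00139) and −2.09 (adjusted p = 0.00482), and the lineage-negative mean was 524 in place of 1033. Against whole marrow the AML difference of *Egr1* was 0.47 (SE 0.565, adjusted p = 0.477).

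*Egr2* and *Egr3*, which act in lymphocytes and in macrophage lineage choice, had the lowest levels of the members per kb of exon. *Egr2* (ENSMUSG00000037868, chromosome 10, 67371305 to 67378018) had 15.3 to 179 normalized counts in AML (median 32.6), 19.6 to 80.8 in lineage-negative marrow and 20.9 to 49.4 in whole marrow. AML replicates 3 (173) and 6 (179) stood above the other 5, which had at most 36.7. *Egr2* passed no test, with log2 differences of 0.50 (SE 0.61) for AML against whole marrow, 0.40 (SE 0.61) against lineage-negative marrow and 0.10 (SE 0.69) between the normal groups. *Egr3* (ENSMUSG00000033730, chromosome 14, 70314652 to 70320063) had 10.4 to 102 normalized counts in AML (median 25.3), 27.8 to 46.4 in whole marrow and 36.1 to 187 in lineage-negative marrow. It was called lower in AML than in lineage-negative marrow (−1.43, SE 0.53, adjusted p = 0.0340), with overlap. That call was lost without AML replicate 1, 5 or 7 or lineage-negative replicate 1 or 3, where the difference was −1.35 to −1.01. It was also lost with all non-zero genes, a fit of the 2 groups compared, the replicate block and when AML replicates were left out together. The receptor background of whole marrow, at 1.90 to 3.57 normalized counts per kb, bears on these low genes. After subtracting it *Egr3* was higher in lineage-negative than in whole marrow by 1.58 (adjusted p = 0.0393), against 1.02 (SE 0.60, adjusted p = 0.147) before and 0.33 (adjusted p = 0.681) with TMM. This subtraction was chosen after seeing the data. *Egr3* in AML against whole marrow was at −0.42 (SE 0.53, adjusted p = 0.505), or −1.09 (adjusted p = 0.139) with TMM.

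*Ier2* (ENSMUSG00000053560, chromosome 8, 85387960 to 85389483) was the steadiest member within AML, at 2051 to 2752 normalized counts (median 2381), a range of 1.34-fold. Whole marrow replicates 1 to 4 had 810.5, 1546, 1257 and 1099.7, and lineage-negative replicates 1 to 4 had 3819, 2127, 2222 and 1444. All AML libraries were above whole marrow, and lineage-negative marrow overlapped both. Against whole marrow the log2 difference of *Ier2* was 1.06 (SE 0.22, adjusted p = 0.000415), or 0.37 (adjusted p = 0.160) with TMM, and 0.90 without whole marrow replicate 1, neither of these a call. AML and lineage-negative marrow differed by 0.09 (SE 0.22, adjusted p = 0.775). Lineage-negative exceeded whole marrow by 0.98 (SE 0.25, adjusted p = 0.00200), just under the fold needed for a call, and passed it without whole marrow replicate 2 or 3 or lineage-negative replicate 2 or 4 (1.01 to 1.19). With TMM this *Ier2* difference was 0.28 (adjusted p = 0.311).

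*Nr4a1* (ENSMUSG00000023034, chromosome 15, 101152150 to 101172676), a nuclear receptor needed for Ly6C-low monocytes and a brake on myeloid leukaemia in mice, was set apart by 1 library. AML replicate 3 had 2751 normalized counts, and the other 6 AML libraries 236 to 461. Whole marrow replicates 1 to 4 had 128, 153, 195 and 177, and lineage-negative replicates 1 to 4 had 939, 204, 382 and 229. All AML libraries were above whole marrow, and AML overlapped lineage-negative marrow. The log2 difference of *Nr4a1* against whole marrow was 1.60 (SE 0.49, adjusted p = 0.00814), or 0.91 (adjusted p = 0.186) with TMM, and 1.19 (adjusted p = 0.00413) without AML replicate 3. The AML mean of *Nr4a1* was 716 ± 900.5 (SD, n = 7), and 377 without that replicate. Against lineage-negative marrow the difference was 0.45 (SE 0.49, adjusted p = 0.484), and between the normal groups 1.15 (SE 0.55, adjusted p = 0.0754). The latter was called without AML replicate 3, which enters it through the shared spread (1.15, adjusted p = 0.00859), and without lineage-negative replicate 2 (1.42, adjusted p = 0.0433). With TMM it was 0.45 (adjusted p = 0.532).

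**Figure D3:**
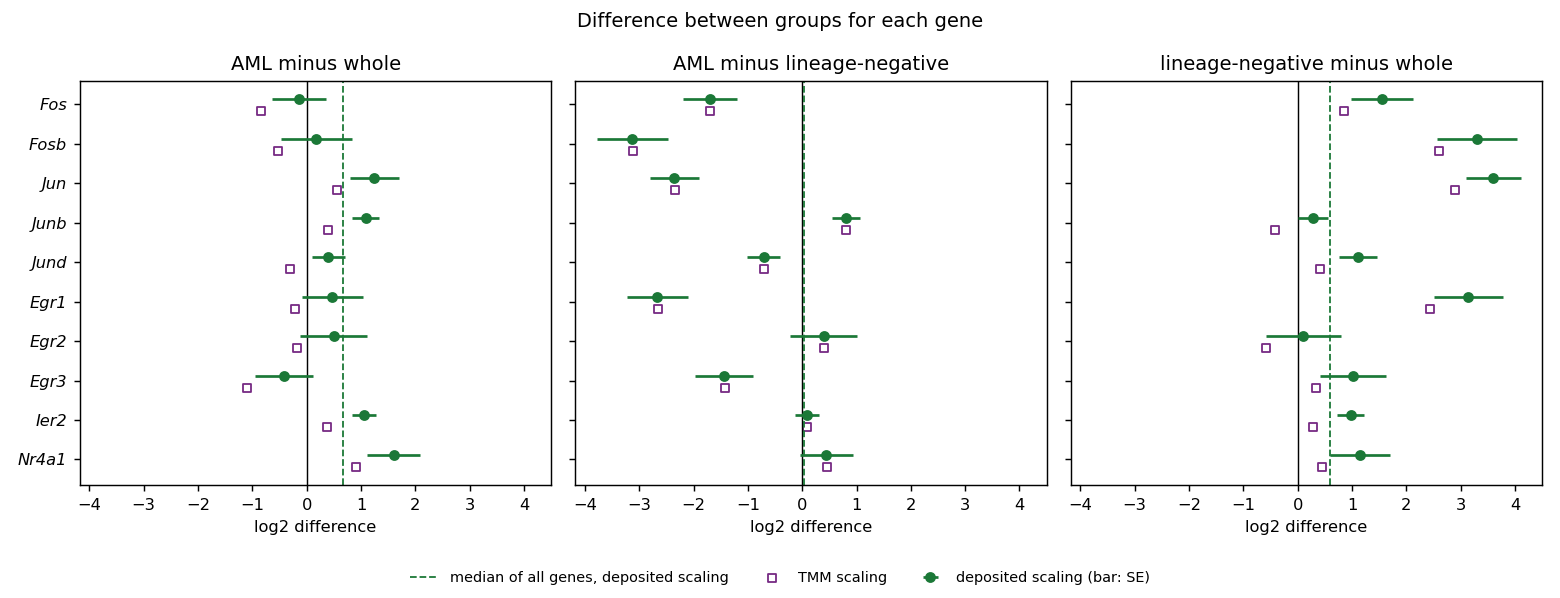
Log2 differences of the 10 genes in the 3 comparisons; filled circles with bars are the deposited scaling with SE, open squares TMM scaling, and the dashed line the median of all genes under the deposited scaling. TMM moves all comparisons with whole marrow to the left and leaves AML minus lineage-negative in place, where *Fosb* (−3.13), *Egr1* (−2.67) and *Jun* (−2.35) are the lowest.

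Per kb of exon, *Fos* had the highest level in whole marrow (1153 ± 265 normalized counts per kb over 4 libraries) and among lineage-negative libraries (3512 ± 1504 over 4), where *Jun* came next (3126 ± 1469.7 over 4). Over the 7 AML libraries *Junb* (1703 ± 616), *Ier2* (1585 ± 186) and *Fos* (1390.05 ± 1129) led, and no neighbours in the AML order differed by more than their spread. *Jun* took place 5 in the order in whole marrow (244 ± 56.2 per kb) and in AML (736 ± 554 per kb). *Egr2* and *Egr3* were the lowest in all 3 groups, and within each group these neighbours in the order did not differ by more than their spread.

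Several libraries were the highest or lowest of their group for many members. Lineage-negative replicate 1 was the highest of its group for all 10. Whole marrow replicate 4 was the highest of its group for 7, and replicate 1 the lowest for 8. Whole marrow replicate 1 also had the lowest sum of normalized counts over all genes in its group, 10221001 against 17865234 to 19285222, and the lowest sum in each of the 13 related and marker lists. AML replicate 6 was the highest AML library for 7 members (*Fos*, *Jun*, *Junb*, *Jund*, *Egr1*, *Egr2* and *Ier2*) and the lowest for *Nr4a1*. AML replicate 1 was the lowest for 6 (*Fos*, *Fosb*, *Jun*, *Egr1*, *Egr2* and *Ier2*). AML replicate 3 was the highest for *Nr4a1* and *Egr3*, and replicate 7 for *Fosb*.

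**Figure D4:**
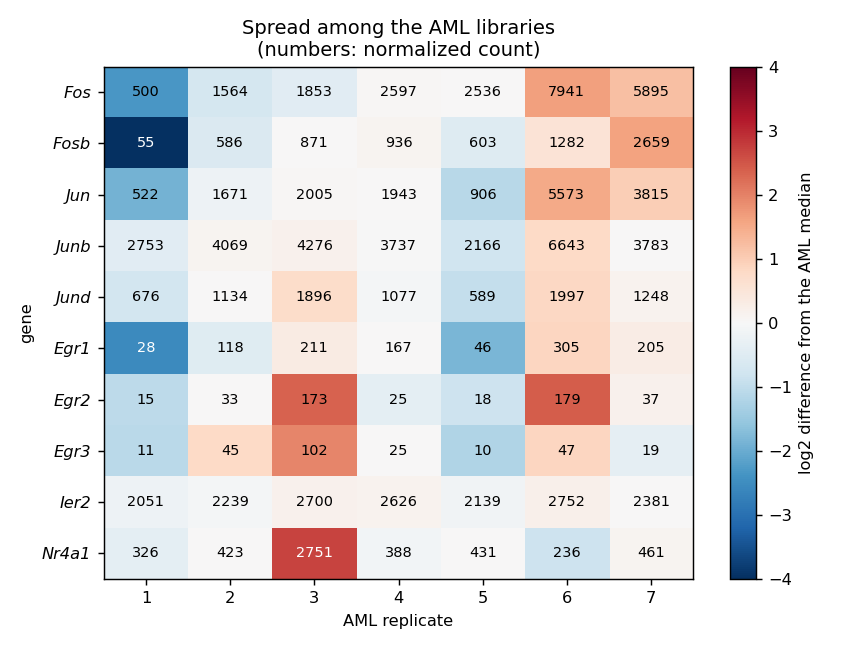
Normalized counts of the 10 genes (rows) in the 7 AML libraries (columns), coloured by the log2 difference from each gene's AML median. Replicate 1 is low for *Fos*, *Fosb*, *Jun* and *Egr1*, replicates 6 and 7 are high for *Fos* and *Jun*, and replicate 3 stands out for *Nr4a1* (2751).

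Libraries were also at an end of their group for some of the 13 list sums. AML replicate 6 was the highest for 3 and lowest for 1, and AML replicate 1 the highest for 3 and lowest for 2. AML replicate 3 was the highest for 2 and lowest for 3, replicate 4 the lowest for 4, and replicate 5 the highest for 3 and lowest for 1. Lineage-negative replicate 1 was the highest for 7 and lowest for 1. AML replicate 6 had the lowest sum of 10 stem and progenitor markers in its group, 6826 normalized counts against 9490 to 17605 in the others, and the fewest genes at 0 of the AML libraries. AML replicate 1 had the highest sum of 10 mature neutrophil markers, 1386560 against 398386 to 988336. Lineage-negative replicate 1 stood apart from the other 3 in its erythroid sum, 56843 against 18117 to 20133, and in its neutrophil sum, 17067 against 974 to 8218. Its stem and progenitor sum was the lowest of its group, 28810.3 against 32874 to 37596. The part of these measures in the levels of the members was not tested. Markers of cell types also differed between groups. Of all genes 27.3% were called higher and 11.3% lower in AML than in whole marrow. Against lineage-negative marrow 17.7% were higher and 12.5% lower in AML. Between the normal groups 33.1% were higher and 17.2% lower in lineage-negative marrow. The neutrophil sum was 974 to 17067 in lineage-negative marrow and 429794 to 1147350 in whole marrow, with all 10 genes called lower in the former. Of 10 stem and progenitor markers, 9 were called higher in lineage-negative than in whole marrow (7 with TMM). Against lineage-negative marrow 7 were called lower and 1 higher in AML. Against whole marrow 4 were called higher and 1 lower in AML, and with TMM 2 higher and 2 lower. Their sums were 28810.3 to 37596 in lineage-negative libraries, 3796 to 6630.4 in whole marrow and 6826 to 17605 in AML. Of 10 monocyte and macrophage markers, 10 were called higher in AML than in lineage-negative marrow. Against whole marrow 6 of these were called higher and 1 lower in AML, and all AML libraries lay above whole marrow for 3. With TMM 2 were higher, against 4.73% of genes, and 1 lower. Sums of these markers were 57174 to 92838 in AML, 10558 to 17260.2 in lineage-negative marrow and 13462 to 29753 in whole marrow. Eosinophil, basophil and mast cell markers, 6 genes, were all called lower in AML than in either normal group, with sums of 586 to 3079 in AML, 33836 to 56292 in lineage-negative marrow and 21293 to 48611 in whole marrow. Of 9 erythroid markers, 9 were lower in AML than in whole marrow and 3 lower than in lineage-negative marrow, and AML sums were 399 to 31837, whereas the lowest sum in whole marrow was 799917. Of 6 megakaryocyte markers, 6 were lower in AML than in whole marrow and 5 lower than in lineage-negative marrow. All 8 B cell markers were lower in AML than in whole marrow, and 6 of 8 were higher than in lineage-negative marrow. Of 8 T and NK cell markers, 5 were higher in AML than in whole marrow, where 27.3% of all genes were. With TMM 0 of these 8 were higher and 1 lower. In AML against lineage-negative marrow 6 of the 8 were higher and 1 lower. The part of these cell types in the differences of the members was not tested. In bulk samples, fewer cells of a type and less RNA per cell cannot be told apart. Of the neutrophil, stem and progenitor, and monocyte and macrophage markers none was at 0 in any library, whereas *Pf4* (megakaryocyte) was at 0 in at least 1 AML library and *Pax5* (B cell) in at least 1 lineage-negative library.

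Genes of heat shock and metal stress were listed because handling of cells is also known to switch them on, and 14 of 15 were tested. In lineage-negative against whole marrow 9 of 14 were called higher and 0 lower, with a median log2 difference of 1.84 against 0.59 over all genes, and 7 were called with TMM. In AML against lineage-negative marrow, where 12.5% of all genes were called lower and 17.7% higher, 7 of 14 were called lower and 0 higher. The median of the 14 was −0.92 there, against 0.02 over all genes. The summed level of the 15 listed genes was 148039 to 198908 normalized counts in lineage-negative marrow, 35079 to 81730 in whole marrow and 75376 to 108646 in AML. The lineage-negative libraries thus did not overlap the others. *Mt2*, a metallothionein, had the largest difference, with 373 ± 99.4 normalized counts over 4 lineage-negative, 37.3 ± 16.3 over 4 whole marrow and 13.1 ± 22.2 over 7 AML libraries, of which the lowest, at 2.16, was under the floor of 3 reads. The AML mean of *Mt2* was 4.77 ± 3.30 (SD, n = 6) without AML replicate 6, which had 62.9. Its log2 difference between the normal groups was 3.35 (SE 0.69, adjusted p = 0.000301). *Hspd1*, a mitochondrial chaperonin, was higher by 2.55 (SE 0.25, adjusted p = 1.37e-07). Their part in the levels of the members was not tested. Lineage-negative replicate 1, the highest for all 10 members, had the second lowest of the 4 heat shock sums, 152557. The largest lineage-negative means in that sum were those of *Hsp90ab1* (48294) and *Hspa8* (47038), whereas *Hspa1a* had 263 and *Hspa1b* 366. Any link of this sum to the members was not tested. Against whole marrow *Mt2* was the 1 gene called lower in AML (−2.27, SE 0.61, adjusted p = 0.00329) and *Hspa8* the 1 called higher (1.03, SE 0.28, adjusted p = 0.00354), the latter not with TMM. Of all genes 11.3% were lower and 27.3% higher there. *Hsph1* (−2.28, SE 0.37) and *Mt1* (−2.18, SE 0.39) were lower in AML than in lineage-negative marrow, and *Mt1* was higher in lineage-negative than in whole marrow by 2.42 (SE 0.44). Isolation of lineage-negative cells and group cannot be told apart in this design.

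Other immediate early genes did not all go with *Jun*. Of 30 listed, 28 were tested. Against lineage-negative marrow 14 were called higher in AML and 5 lower, where 17.7% of all genes were higher and 12.5% lower. The median log2 difference of the 28 was 1.23 against 0.02 over all genes. *Sgk1*, a kinase, was higher by 2.61 (SE 0.23, adjusted p = 2.64e-08), and *Atf3*, an AP-1 partner made under stress, by 2.54 (SE 0.35, adjusted p = 6.69e-06). *Myc*, the growth regulator, was lower by −2.40 (SE 0.25, adjusted p = 1.91e-07). Against whole marrow 13 were called higher and 1 lower in AML, where 27.3% of all genes were higher and 11.3% lower. With TMM 3 were higher and 1 lower. *Atf3* (387 ± 88.9 over 7 AML and 61.0 ± 12.3 over 4 whole marrow libraries) was higher by 2.63 (SE 0.35, adjusted p = 6.87e-06) and *Klf4*, a monocyte factor, by 2.31 (SE 0.24, adjusted p = 5.99e-07), and both were also called with TMM. *Ppp1r15a*, which reverses the block of translation under stress, was the 1 lower gene, by −3.50 (SE 0.40, adjusted p = 1.71e-06). In lineage-negative against whole marrow 6 of 28 were higher and 5 lower, where 33.1% of all genes were higher and 17.2% lower. With TMM 4 were higher and 10 lower. The differences there were 3.52 for *Myc* (SE 0.28, adjusted p = 2.37e-08), 1.79 for *Ier3* (SE 0.37, adjusted p = 0.000298) and −2.14 for *Sgk1* (SE 0.26, adjusted p = 1.77e-06), before TMM.

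Of the bZIP partners of AP-1, a list of 10 without the members, some were called higher in AML. Against lineage-negative marrow 5 of 10 were called higher and 0 lower, where 17.7% of all genes were higher and 12.5% lower. Among genes with a mean of 100 or more the largest differences were those of *Maf* (2.81, SE 0.27, adjusted p = 5.97e-08), a factor of macrophages, *Jdp2* (1.51, SE 0.28, adjusted p = 0.000187) and *Batf* (1.16, SE 0.32, adjusted p = 0.00491), an AP-1 partner of lymphoid and dendritic cells. *Batf3* (5.18, SE 0.45, adjusted p = 1.96e-08), a dendritic cell factor with 183 normalized counts in AML and 3.16 in lineage-negative marrow, near the floor of 3 reads, and *Batf2* (2.68, SE 0.41, adjusted p = 2.37e-05) had lower means and were named after their values were seen. *Maf* and *Jdp2* were also the 2 called lower in lineage-negative than in whole marrow, by −2.05 and −1.43, with 1 of 10 called higher, *Atf7* at 1.22 (SE 0.31, adjusted p = 0.00195). With TMM 0 were higher and 4 lower there. Of all genes 33.1% were higher and 17.2% lower in that comparison. Against whole marrow 4 of 10 were called higher in AML and 0 lower, where 27.3% of all genes were higher and 11.3% lower. The median log2 difference of the 10 was 0.61 there, against 0.67 over all genes. With TMM 3 were called higher and 1 lower, where 4.73% of genes were higher. *Batf* had 555 ± 360.2 normalized counts over 7 AML and 140.2 ± 47.1 over 4 whole marrow libraries, a log2 difference of 1.87 (SE 0.32, adjusted p = 6.55e-05). *Atf7* was higher by 1.51 (SE 0.27, adjusted p = 0.000127) and was not called with TMM.

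Upstream of the members, 20 genes of serum response factor, its partners, CREB and the MAPK cascade were tested. In AML against lineage-negative marrow their median log2 difference was −0.03, against 0.02 over all genes. In this comparison 17.7% of all genes were called higher and 12.5% lower. Of the 20, 3 were called higher and 0 lower. They were *Mrtfa* (1.54, SE 0.22, adjusted p = 1.09e-05), an actin-regulated partner of serum response factor, *Map2k1* (1.44, SE 0.20, adjusted p = 8.13e-06), which encodes MEK1, and *Mapk3* (1.33, SE 0.24, adjusted p = 0.000122), which encodes ERK1. Against whole marrow 6 of 20 were called higher in AML, where 27.3% of all genes were, and 6 of 20 higher in lineage-negative marrow, where 33.1% were. The largest differences were those of *Elk3* (1.28, SE 0.22), *Map2k1* (1.26, SE 0.20) and *Mapk7* (1.13, SE 0.18) in AML and by *Mapk9* (1.58, SE 0.22), *Elk3* (1.53, SE 0.24) and *Mapk8* (1.35, SE 0.23) in lineage-negative marrow. With TMM none of the 20 was called higher in either comparison, and 2 were called lower in lineage-negative marrow. The corepressors of EGR proteins and textbook AP-1 or EGR targets made a list of 10, of which 9 were tested. In AML against lineage-negative marrow 17.7% of all genes were called higher and 12.5% lower. The list gave 5 higher and 0 lower calls there. The largest were *Mmp9* (6.86, SE 0.67, adjusted p = 8.13e-08), a gelatinase of neutrophil granules that is also on the neutrophil list, the urokinase receptor gene *Plaur* (3.57, SE 0.26, adjusted p = 2.03e-09) and *Hmox1* (3.50, SE 0.31, adjusted p = 2.44e-08), a heme-degrading enzyme. *Mmp9*, *Plaur* and *Hmox1* also led the 4 called lower in lineage-negative than in whole marrow, by −7.04, −3.21 and −3.64, where 2 of 9 were called higher (1 higher and 5 lower with TMM). Of all genes 33.1% were higher and 17.2% lower there. Against whole marrow 3 of 9 were called higher in AML, where 27.3% of all genes were. The median log2 difference of the 9 was 0.76 there, against 0.67 over all genes. The 3 were *Tgfb1* (1.52, SE 0.23), the EGR corepressor gene *Nab1* (1.14, SE 0.19) and the cyclin D1 gene *Ccnd1* (1.89, SE 0.37, adjusted p = 0.000287). With TMM 1 of 9 was called, *Ccnd1* at 1.19.

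By the root-mean-square difference between centred log2 profiles over the 15 libraries, the genes nearest to the mean profile of the members were *Jade2* (0.44), *Gm37352* (0.45), *Faah* (0.47), *Zbtb16* (0.48) and *Plcg1* (0.50); a mean of 100 or more was required. For the members themselves this distance was 0.30 for *Jund* and 0.64 to 1.15 for the other 9. *Jade2* averaged 933 ± 208 normalized counts over 4 lineage-negative, 664 ± 288 over 7 AML and 354 ± 68.5 over 4 whole marrow libraries.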

How the data were processed

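Bulk sequencing of total RNA covered 15 libraries, made with the TruSeq Stranded Total RNA kit after TRIzol extraction, per the labels' protocols. The deposited signal values are the authors' estimated counts divided by a DESeq2 size factor of the poscounts type, per the table's name. Partek, STAR and mm10 are named, with no versions, per the submitters' processing notes. Gene starts in the table matched a GRCm38 annotation for 861 of 38066 shared identifiers and for 0 of the 10 members, so the members' coordinates are the table's own and their build is not stated here. That annotation gave exonic lengths. The strand setting of the counting is not given in the sources used here, so overlapping and antisense genes may share reads.

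In each library 82.2% to 87.1% of low values were whole multiples of the value of 1 read (tolerance 0.02). Whole reads were therefore not recovered and no count test was run. Depth is the total divided by that value. A floor of 3 reads corresponds to 1.96 to 4.09 normalized counts and covers counting error only. Genes with 10 or more normalized counts in 4 or more samples were kept (18941). Their log2 values (pseudocount 1) entered a single limma fit of 3 group means (limma 3.58.1, R 4.3.3, mean-variance trend, two-sided tests, Benjamini-Hochberg over the genes kept), and log2 differences are on that scale. The procedure was tested on simulated data. Samples with the same replicate number had correlations of deviations of −0.29 to 0.17. The labels used here do not state a pairing, and with so few samples per group this check cannot exclude one. No pairing entered the main fit.

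The members and lists were chosen with earlier results of these data known. Besides the members, the text names up to 3 called genes per related list and comparison, those with the largest absolute difference and a mean of at least 100, and the 5 genes nearest to the members' mean profile. Some genes of the related and marker lists are not reported here and are left out of their counts.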

Additional observations from a re-analysis of the deposited data

Results flagged for a closer look

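In each group of 4 or 7 samples, the highest or lowest library was compared with its neighbour by Dixon's test. Of 123 groups of values examined 18 stood out, 6 of them among the 30 of the members, and chance alone marks about 1 in 20. No explanation was tested.

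Among the members, *Nr4a1* had 2751 normalized counts in AML replicate 3 against 236 to 461 in the other AML libraries, and *Egr3* had 102 there against 10.4 to 46.9. *Egr1* had 2557 in lineage-negative replicate 1 against 379 to 666, and *Junb* 3463 against 1621 to 1912. In whole marrow, *Fos* was low in replicate 1, at 1789 against 2944 to 3163, and *Jun* high in replicate 4, at 1046 against 675 to 705. The *Jun* share of the 3 JUN genes was lowest in lineage-negative replicate 4, at 55.4% against 59.8% to 60.5%.

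Among related genes, AML replicate 6 was far above the other AML libraries for *Batf* (1350.0 normalized counts), *Ier3* (596), *Mt1* (969) and *Mt2* (62.9), AML replicate 7 for *Hsph1* (1154) and AML replicate 1 for *Mapk3* (3704), while AML replicate 4 was far below for *Nab1* (1652). Lineage-negative replicate 1 was high for *Mrtfa* (1929) and *Tgfb1* (5239), and replicate 4 for *Hmox1* (148). Whole marrow replicate 1 was low for *Hmox1* (469).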

How the results depend on the processing

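TMM scaling, quantile normalization, pseudocounts, filters, a fit of the 2 groups compared, robust empirical Bayes and leaving out each library were tried; leaving out AML replicates together and subtracting the receptor background were chosen after seeing the data. Count tests on whole reads were not run. Of all genes, 5167 were called higher in AML than in whole marrow, with TMM 896, with quantile normalization 2474 and without single libraries 3165 to 5832, the lowest without whole marrow replicate 1. The 2132 called lower became 11289 with all non-zero genes, 460.0 with a mean of at least 50, 685 after background subtraction and 1237 to 2128 without single libraries, with 1237 to 1315 when a whole marrow replicate was the one left out. Calls higher in AML than in lineage-negative marrow went from 3359 to 2225 with a mean of at least 50. Calls higher in lineage-negative than in whole marrow went from 6266 to 2075 with TMM and 4133 with quantile normalization, and those lower from 3259 to 12497 with all non-zero genes, 1244 with a mean of at least 50 and 1633 after background subtraction. The cause of these shifts was not tested.

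Members called higher in AML than in whole marrow numbered 4, with TMM or quantile normalization 0, and without single libraries 2 to 4 (2 without AML replicate 6 or whole marrow replicate 1). They numbered 3, with *Jun* lost, with robust empirical Bayes, with the replicate block and without AML replicates 5 to 7. Members higher in AML than in lineage-negative marrow numbered 0 to 1 without single libraries, the 1 without lineage-negative replicate 1. Members lower in AML than in lineage-negative marrow numbered 5, or 4 where *Egr3* was lost. Members higher in lineage-negative than in whole marrow numbered 5, with TMM or quantile normalization 3, and 3 to 7 without single libraries (3 without lineage-negative replicate 1, 7 without replicate 2). They numbered 4, with *Fos* lost, with robust empirical Bayes. They numbered 6 with the fit of the 2 groups compared, which added *Nr4a1*, and after background subtraction, which added *Egr3*.

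The sign of 21 member differences turned, none of them a call. For AML against whole marrow, *Fosb* was −0.52 with TMM, −0.55 with quantile normalization, −0.53 without AML replicates 5 to 7 and −0.16 to 0.77 without single libraries. *Fos* ranged from −0.44 to 0.23 without single libraries. *Jund* was −0.30 and −0.35, and *Egr1* −0.22 and −0.14, with TMM and quantile normalization, *Egr2* −0.18 with TMM and *Egr3* 0.075 after background subtraction. For AML against lineage-negative marrow, *Ier2* was −0.041 with quantile normalization and −0.13 to 0.34 without single libraries. Between the normal groups, *Junb* was −0.42 with TMM and −0.35 with quantile normalization, and *Egr2* −0.58 with TMM and −0.33 to 0.33 without single libraries.

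With the replicate block on replicates 1 to 4, 5256 genes were higher and 2200.0 lower in AML than in whole marrow, against 5240.0 and 2188 in those samples without it, and *Fosb* was −0.53 there. Whether shared numbers mark pairs is not stated in the labels used here and could not be settled. Depth is lowest in whole marrow, where a floor of 3 reads is 2.69 to 4.09 normalized counts.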
